A study of Mus musculus with 19 samples.

Results

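The livers compared here came from mice labelled IL-6 -/- and from wild-type (WT) mice, all with furosemide-induced pre-renal azotemia (PRA), and the comparison asks which transcripts were lower or higher without interleukin-6. Its members are the 3 knockout PRA and 4 WT PRA libraries, chosen by their labels out of 19 in the series, and 15570 genes could be tested between them. All mice were C57BL/6, and no age is given. The PRA groups received 2 intraperitoneal injections of 4 mg furosemide, 3 h apart, and liver was taken 6 h after the first injection. The 4 WT vehicle and 4 knockout vehicle libraries came from mice injected with vehicle on the same schedule, and the 4 normal libraries from WT mice that were not injected. Furosemide is a loop diuretic, and pre-renal azotemia is the retention of nitrogenous waste that follows poor perfusion of the kidney. Poly(A) RNA of whole liver was sequenced with paired-end Illumina reads. Whether the libraries of a group are from different animals is not stated in the labels, and p-values therefore reflect only how far these libraries differ, possibly for technical reasons.

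Interleukin-6 is a cytokine that binds the receptor chain IL-6R and the shared chain gp130, which activates JAK kinases and the transcription factor STAT3. In hepatocytes this pathway is known for switching on the acute phase response, in which the liver secretes serum amyloid A, fibrinogen, haptoglobin and protease inhibitors. SOCS3, itself a STAT3 target, shuts the receptor off again.

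Depth was 32073865 to 64173186 gene counts in the 7 PRA libraries. In a principal component analysis of these 7, the first component held 29.5% of the variance and placed the WT libraries at -37.2 to -13.6 and the knockout libraries at 26.9 to 34.5. The second component held 21.9% and set WT PRA 1 apart, at 46.1 against -26.0 to 10.6 for the others. That library also stood apart in tissue markers. It had 278 CPM (counts scaled to a common library total by TMM) of Dmbt1, a mucosal scavenger protein, where the other 3 WT PRA libraries had 0. Its level of Krt19, a bile duct keratin, was 40.9 CPM against 0.805 to 1.10 CPM, and that of Acta2, smooth muscle actin, was 58.2 CPM against 2.64 to 4.90 CPM. Counts over all genes are given below with and without WT PRA 1.

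Il6 (ENSMUSG00000025746) was near the limit of detection in every liver library. WT PRA libraries had 2, 1, 0 and 3 counts and knockout PRA libraries had 3, 16 and 5 counts. The knockout counts were not below the WT counts, so Il6 does not check the genotype labels here, and a count over the whole gene can include transcript outside the deleted part. "Knockout" therefore means the library labelled IL-6 -/- throughout. The vehicle libraries had 4, 0, 0 and 0 counts in WT and 4, 1, 1 and 3 counts in knockout, and the normal libraries had 0, 2, 0 and 1. Abhd1 (ENSMUSG00000006638), an abhydrolase-domain gene among the 25 tested genes nearest to Il6 on its side of the chromosome, did divide the libraries by label. It was at 4.56, 3.27, 2.78 and 3.20 CPM in WT PRA and at 61.0, 62.6 and 54.5 CPM in knockout PRA. After vehicle it averaged 3.74 ± 0.481 CPM (SD, n = 4) in WT and 57.2 ± 7.21 CPM (n = 4) in knockout. Its level under PRA was 17.3-fold higher in the knockout (log2 fold change 4.12 ± 0.15 SE, edgeR adjusted p = 2.16e-13).

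Slc13a5 (ENSMUSG00000020805), the plasma membrane citrate transporter of hepatocytes, was at 5.18, 4.40, 7.17 and 3.13 CPM in WT PRA and at 0.660, 0.484 and 0.149 CPM in knockout PRA. The groups did not overlap, and Slc13a5 fell 11.3-fold without IL-6 (log2 fold change -3.50 ± 0.38, edgeR adjusted p = 6.07e-06). Saa2, a serum amyloid A gene, fell as described below, and Cyp4a10, a fatty acid omega-hydroxylase, rose. Hepatocyte markers were abundant in all 7 libraries. The 6 markers of that list summed to 90970 to 98210 CPM in WT PRA and to 104400 to 140100 CPM in knockout PRA. TMM-scaled CPM do not add up to the same total in every library, so these sums are not shares of the counts. In edgeR 0 of the 6 markers passed the test. In DESeq2 and in limma-voom 2 of them were higher, and 1 was higher without knockout PRA 3. Albumin (Alb, ENSMUSG00000029368) was at 66718, 60607, 65288 and 64958 CPM in WT PRA and at 101216, 79586 and 75605 CPM in knockout PRA. Its difference missed the threshold (log2 fold change 0.41 ± 0.12, edgeR adjusted p = 0.0502).

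Over all tested genes, 335 were lower and 256 higher in the knockout liver under PRA at an edgeR adjusted p of 0.05 or less. These are 2.15% and 1.64% of the 15570 genes, 3.8% together. The lower genes held the larger differences: 138 of them (0.886% of all tested genes) differed at least 2-fold, against 60 of the higher genes (0.385%). The median log2 fold change was -0.83 over the lower genes, 0.67 over the higher genes and 0.02 over all tested genes. Without WT PRA 1, 296 genes were lower and 193 higher, and 445 of the 591 genes were among them. The count of lower genes was 221 without knockout PRA 1 and that of higher genes was 93, and 168, 139, 155 and 156 genes were higher without WT PRA 2, WT PRA 3, WT PRA 4 and knockout PRA 3. In 1130 genes (7.26%) every knockout PRA library lay below every WT PRA library, and in 1320 genes (8.48%) every one lay above. At the edge of the threshold, Camsap1 passed with an adjusted p of 0.0499 and Sema4a missed it with 0.0501.

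**Figure D1:**
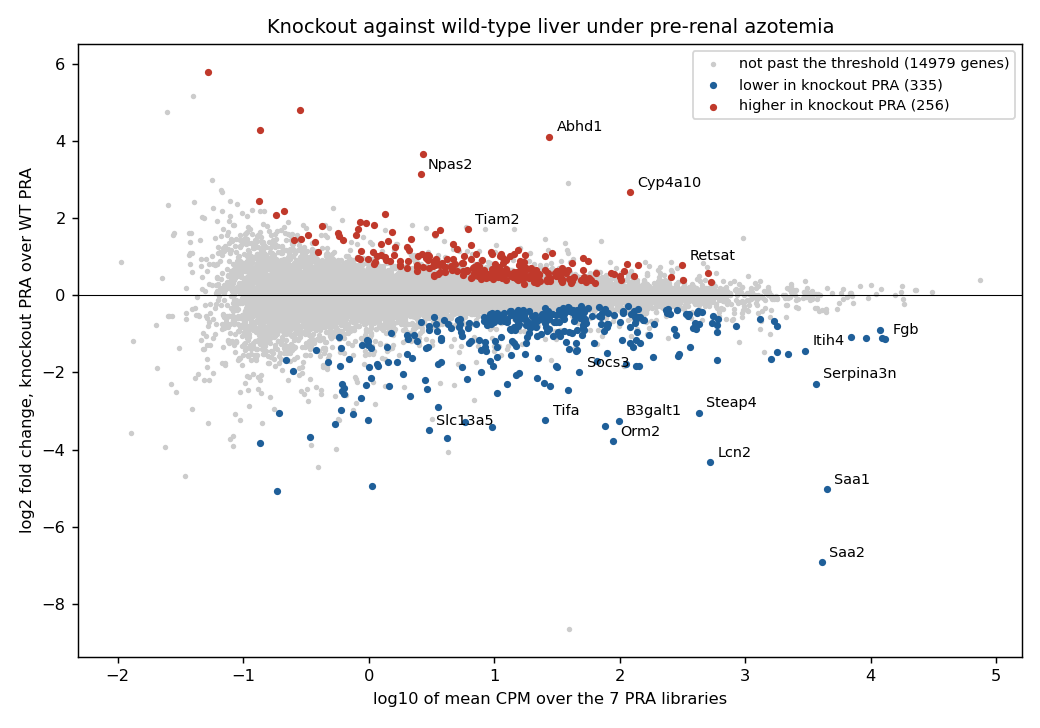
Each point is a tested gene, with the log10 of its mean CPM over the 7 PRA libraries on the x axis and the log2 fold change of knockout PRA over WT PRA on the y axis. Blue points are the 335 genes lower and red points the 256 genes higher at an adjusted p of 0.05, and the lower genes reach further from 0 than the higher ones.

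The positive acute phase proteins were the group with the most calls. Of 36 tested members, 23 fell in the knockout, 0 rose and 13 did not pass, and their median log2 fold change was -1.13 against 0.02 over all genes. Over all tested genes 2.15% were lower and 1.64% higher, and the counts of this and the later lists stand beside these shares. Counts of a few genes are not taken as a result about a list. Together the transcripts of the 36 members summed to 130200 to 163200 CPM in the WT PRA libraries and 64720 to 82250 CPM in the knockout PRA libraries. After vehicle the sums were 51090 to 55790 CPM in WT and 46920 to 60490 CPM in knockout. These are sums of TMM-scaled CPM, not shares of a library's counts. Leaving out each of the 7 libraries in turn left 19 to 23 members lower. In whole liver, fewer cells of a type and less RNA per cell cannot be told apart.

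Serum amyloid A, the apolipoprotein-like protein that enters high-density lipoprotein in inflammation, showed the largest drop among the acute phase genes. Saa2 (ENSMUSG00000057465) was at 7001, 6375, 9556 and 5445 CPM in WT PRA and at 47.9, 90.7 and 37.1 CPM in knockout PRA. The lowest WT library was far above the highest knockout library, and Saa2 fell 121-fold (log2 fold change -6.92 ± 0.71, edgeR adjusted p = 3.59e-05). Saa1 (ENSMUSG00000074115), its near-identical copy, was at 7493, 7750.5, 9438 and 5772 CPM in WT PRA and at 332, 214 and 151 CPM in knockout PRA. It fell 32.8-fold, again with no overlap (log2 fold change -5.03 ± 0.47, edgeR adjusted p = 7.19e-06). The counting listed 15.56% to 19.15% of the reads of the 7 libraries as not uniquely aligned. Reads shared by Saa1 and Saa2 may be among them, so the separate values of these genes are uncertain. Saa3 (ENSMUSG00000040026), which macrophages also make, was at 23.2, 28, 19 and 16.3 CPM in WT PRA and at 25.7, 3.72 and 4.33 CPM in knockout PRA. Knockout PRA 1 lay within the WT range and the other 2 knockout libraries below it. Saa3 did not pass with all 7 libraries (log2 fold change -0.93 ± 0.56, edgeR adjusted p = 0.449) and passed without knockout PRA 1 (log2 fold change -2.44, adjusted p = 0.00384), with adjusted p from 0.00384 to 1 over its alternatives.

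Lipocalin 2 (Lcn2, ENSMUSG00000026822), which binds bacterial iron carriers, was at 929.9, 833, 1041 and 725 CPM in WT PRA and at 67.2, 37.2 and 27 CPM in knockout PRA. All 4 WT libraries were above all 3 knockout libraries, and Lcn2 fell 20.1-fold (log2 fold change -4.33 ± 0.40, edgeR adjusted p = 6.07e-06). The orosomucoids, small plasma glycoproteins that bind drugs and lipids, fell in all 3 forms. Orm2 (ENSMUSG00000061540) was at 179, 146, 172 and 88.1 CPM in WT PRA and at 14.4, 7.90 and 9.28 CPM in knockout PRA. That was a 13.8-fold drop with no overlap (log2 fold change -3.79 ± 0.28, edgeR adjusted p = 3.44e-07). The scarcer Orm3 (ENSMUSG00000028359) fell 10.6-fold, from a mean of 15.7 ± 3.09 CPM to 1.5 ± 0.825 CPM (adjusted p = 0.000508), and the abundant Orm1 (ENSMUSG00000039196) fell 2.76-fold, from 2456 ± 359 to 890.2 ± 115 CPM (adjusted p = 3.96e-06). The 3 genes are close copies and may share reads.

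Among the protease inhibitors, Serpina3n (ENSMUSG00000021091), a counterpart of human antichymotrypsin, was at 5348, 4529, 7388 and 4843 CPM in WT PRA and at 1131, 1157 and 1093 CPM in knockout PRA. The knockout libraries were tightly grouped below all WT libraries, and the gene fell 4.90-fold (log2 fold change -2.29 ± 0.14, edgeR adjusted p = 9.88e-10). Serpina3m fell less (log2 fold change -0.76, adjusted p = 0.00495), and the pseudogene Serpina3e-ps fell 5.07-fold, from 42.7 ± 8.01 to 8.42 ± 0.778 CPM (adjusted p = 9.88e-10). Serpina3 copies may share reads. Serpina10 (ENSMUSG00000061947), the protein Z-dependent protease inhibitor that restrains factor Xa, was at 367, 359, 489 and 439.7 CPM in WT PRA and at 163, 134 and 134 CPM in knockout PRA. It fell 2.88-fold without overlap (log2 fold change -1.53 ± 0.15, edgeR adjusted p = 1.45e-06). Itih4 (ENSMUSG00000021922), an inter-alpha-trypsin inhibitor heavy chain, was at 4061, 4038, 4645 and 3769 CPM in WT PRA and at 1518, 1409.9 and 1627 CPM in knockout PRA. Its groups were separate as well, with a 2.72-fold drop (log2 fold change -1.44 ± 0.11, edgeR adjusted p = 4.87e-08). Itih3 of the same family had a smaller drop (log2 fold change -0.80, adjusted p = 0.000308).

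The 3 fibrinogen chains, the precursor of the clot, fell by nearly the same factor. Fgb (ENSMUSG00000033831), the beta chain, was at 15564, 14963, 21127 and 16375 CPM in WT PRA and at 8727, 7348 and 7151 CPM in knockout PRA, and the groups did not overlap. The drop was 2.2-fold for Fgb (log2 fold change -1.14 ± 0.17, edgeR adjusted p = 0.000289), 2.14-fold for the alpha chain Fga (ENSMUSG00000028001; -1.10 ± 0.16, adjusted p = 0.000255) and 2.17-fold for the gamma chain Fgg (ENSMUSG00000033860; -1.12 ± 0.17, adjusted p = 0.000308). The fibrinogen-like hepatokine Fgl1 (ENSMUSG00000031594) was at 859, 832, 833 and 864 CPM in WT PRA and at 368, 203 and 219 CPM in knockout PRA. It fell 3.22-fold (log2 fold change -1.69 ± 0.22, edgeR adjusted p = 0.000121). Lrg1 (ENSMUSG00000037095), a leucine-rich plasma glycoprotein, fell 3.14-fold, from 2261 ± 430.3 CPM to 719.8 ± 154 CPM (adjusted p = 7.19e-06).

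Haptoglobin (Hp, ENSMUSG00000031722), which binds free hemoglobin, was at 15326, 14405, 16740.1 and 12218 CPM in WT PRA and at 12089, 5835 and 5595 CPM in knockout PRA. Knockout PRA 1 lay just under the lowest WT library and well above the other knockout libraries. Hp fell 1.87-fold with all 7 libraries (log2 fold change -0.90 ± 0.22, edgeR adjusted p = 0.0226). The call was lost without WT PRA 3 (adjusted p = 0.0679), knockout PRA 2 (0.116) or knockout PRA 3 (0.118), and over its 16 alternatives the adjusted p ran from 0.000134 to 1. Hemopexin (Hpx, ENSMUSG00000030895), which carries free heme, was at 10206, 9927, 8401 and 7679 CPM in WT PRA and at 6580.3, 3369 and 2897 CPM in knockout PRA. It fell (log2 fold change -1.08 ± 0.21, edgeR adjusted p = 0.00372), with knockout PRA 1 again the highest of its group. In that library the 10 most abundant genes took 26.2% of the counts, against 22.1% to 23.4% in the other knockout PRA libraries and 20.5% to 21.4% in WT PRA. Its part in these values was not tested.

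Other acute phase members passed with larger p-values or did not pass. C-reactive protein (Crp), a weak acute phase reactant in the mouse, fell by 0.40 on the log2 scale, from 465 ± 31.8 to 353 ± 24.2 CPM (edgeR adjusted p = 0.027). Serum amyloid P (Apcs), its pentraxin relative, fell from 136 ± 23.6 to 60.8 ± 17.9 CPM (adjusted p = 0.0338). Lipopolysaccharide-binding protein (Lbp) was at 372, 363, 395 and 282 CPM in WT PRA and at 456, 206 and 233 CPM in knockout PRA, and did not pass (log2 fold change -0.24 ± 0.20, adjusted p = 0.622). Complement C3 did not pass either (log2 fold change -0.20 ± 0.14, adjusted p = 0.529). Alpha-2-macroglobulin (A2m), a main acute phase protein of the rat, was at 0.0510 to 0.559 CPM in the 7 libraries. None of the 17 tested negative acute phase proteins passed in edgeR, and their median log2 fold change was 0.05. In that list, 1 gene was higher in DESeq2, in limma-voom, with a 1 CPM filter and without knockout PRA 3.

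**Figure D2:**
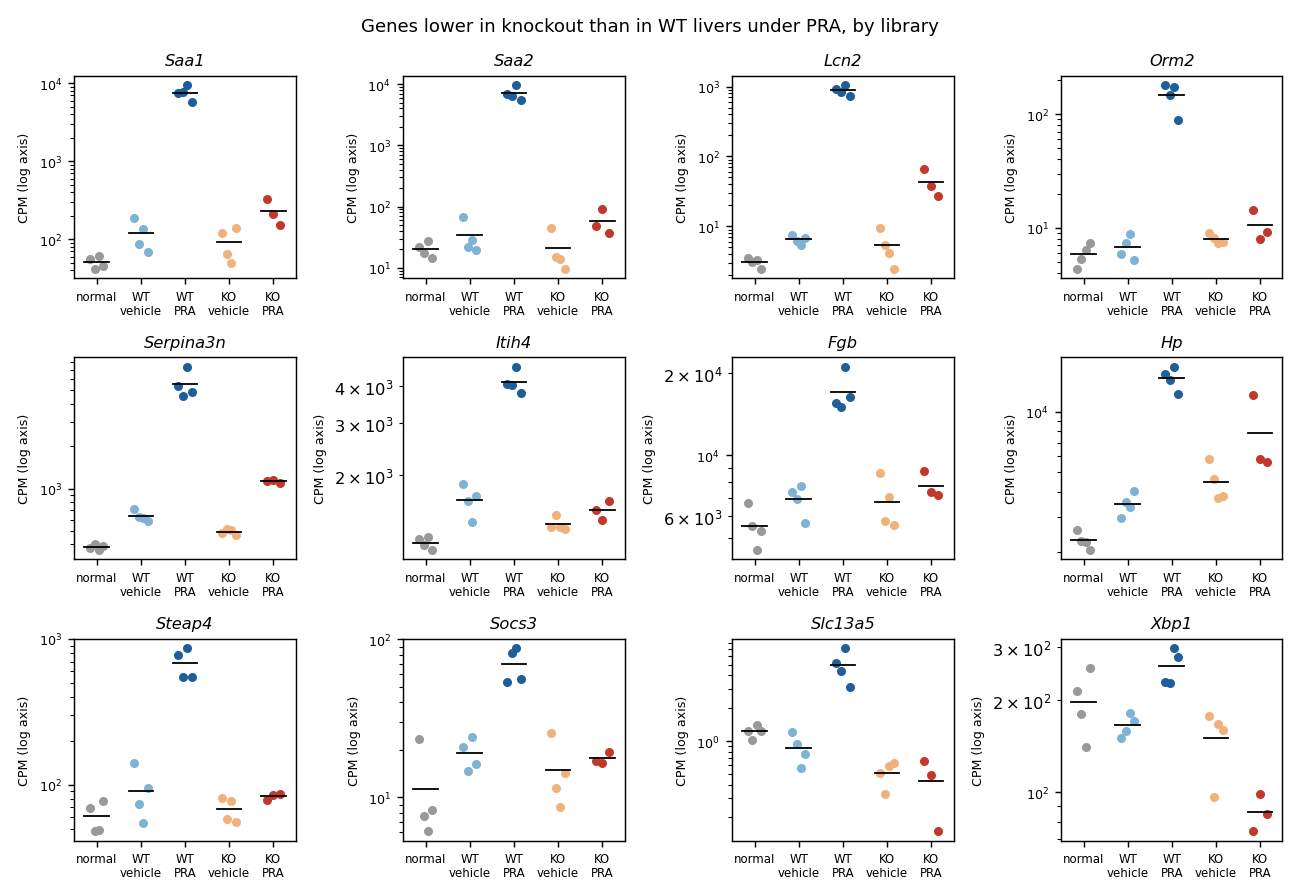
TMM-scaled CPM (log axis) of 12 genes lower in knockout liver under PRA, by group, with a point for each library and a bar at the group mean. For Saa2, Saa1, Lcn2 and Orm2 the knockout PRA points lie far below the WT PRA points, for Steap4 and Socs3 they lie among the vehicle points, and Hp has 1 high knockout PRA library at 12089 CPM.

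Receptor and signalling genes of the IL-6 pathway had fewer calls than the acute phase list. Of 28 tested members of the IL-6, JAK and STAT3 list, 4 fell (Socs3, Bcl3, Cebpb and Ptpn2), 1 rose (Pias3) and 23 did not pass, with a median log2 fold change of -0.26. DESeq2 called 9 members lower, limma-voom 7, and a fit to the 2 PRA groups alone 10. The receptor chain Il6ra (ENSMUSG00000027947) was at 75.4, 85.7, 83.0 and 86.6 CPM in WT PRA and at 68.2, 78.5 and 124 CPM in knockout PRA. The groups overlapped and the difference did not pass (log2 fold change 0.13 ± 0.32, edgeR adjusted p = 0.907). The gp130 chain Il6st was at 83.3 to 103 CPM in WT PRA and 63.5 to 85.3 CPM in knockout PRA (log2 fold change -0.42 ± 0.12, adjusted p = 0.0547), and the kinase Jak2 at 6.90 to 9.81 and 8.43 to 11.4 CPM (0.27 ± 0.15, adjusted p = 0.391). Neither passed.

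Stat3 (ENSMUSG00000004040), the transcription factor of the pathway and itself STAT3-inducible, was at 201, 202, 233 and 209 CPM in WT PRA and at 104, 103 and 147 CPM in knockout PRA. All knockout libraries were below all WT libraries, yet the difference missed the threshold in the fit to all 19 libraries (log2 fold change -0.84 ± 0.24, edgeR adjusted p = 0.0586). It passed under upper quartile scaling (0.041), a 1 CPM filter (0.0465), DESeq2 (0.00494), limma-voom (0.00105) and a fit to the 2 groups alone (0.000456), and the adjusted p ran from 0.000456 to 1 over 16 alternatives. Socs3 (ENSMUSG00000053113), the feedback inhibitor, was at 54.0, 82.3, 88.5 and 56.4 CPM in WT PRA and at 17.1, 16.6 and 19.4 CPM in knockout PRA. Knockout libraries were alike and below all WT libraries, and Socs3 fell 3.97-fold (log2 fold change -1.99 ± 0.45, edgeR adjusted p = 0.0201). The Socs3 call was lost without WT PRA 3 (0.0532) or without knockout PRA 1 (0.0893), 2 (0.0827) or 3 (0.0633), with adjusted p from 0.000148 to 0.178 over 16 alternatives. The knockout PRA mean of 17.7 ± 1.49 CPM was close to the vehicle means of 19 ± 4.42 CPM in WT and 14.9 ± 7.36 CPM in knockout.

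Among the other members, Bcl3 (ENSMUSG00000053175), an IκB family co-regulator, fell 2.37-fold (log2 fold change -1.25 ± 0.24, edgeR adjusted p = 0.00483), with means of 162 ± 35.9 CPM in WT PRA and 68.2 ± 17.0 CPM in knockout PRA. Ptpn2 (ENSMUSG00000024539), a phosphatase that acts on JAK and STAT proteins, was at 18.9, 21.9, 25.5 and 21.0 CPM in WT PRA and at 13.2, 13.7 and 11.4 CPM in knockout PRA. It fell 1.71-fold without overlap (log2 fold change -0.78 ± 0.11, adjusted p = 0.00014). Cebpb (ENSMUSG00000056501), a transcription factor of acute phase genes, fell 1.45-fold from 643 ± 24.6 to 443 ± 28.4 CPM (adjusted p = 0.00563), and both values were above the vehicle means of 177 ± 16.7 CPM in WT and 147 ± 17.4 CPM in knockout. Pias3 (ENSMUSG00000028101), an inhibitor of activated STAT3, rose 1.60-fold, from 5.55 ± 0.538 to 8.85 ± 1.64 CPM (adjusted p = 0.00526).

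Activated STAT3 dimers bind DNA at spaced palindromes of the form TTCNNNGAA, whose fixed letters read the same on both strands. The promoters of the strongly lower genes were therefore searched for that motif and for its stricter form TTCCNGGAA, which is contained in it. Of 22 lower genes named for fold, CPM difference or pathway, 19 had a RefSeq promoter (GRCm38.p6, 250 bases before to 50 after the gene start), 5 of these held TTCNNNGAA and 2 held TTCCNGGAA. The 5 are shown 5′ to 3′ on the gene's strand, with the motif in capitals. They are Fga at chr3:83025903-83026202 on the + strand (TTCCTGGAA, 234 bases before the start), Fgb at chr3:83049814-83050113 on the - strand (TTCGAGGAA, 162 bases before) and Socs3 at chr11:117969317-117969616 on the - strand (TTCTTAGAA, 154 bases before). Steap4 lies at chr5:7960222-7960521 on the + strand (TTCCCGGAA, 116 bases before) and Tgm1 at chr14:55713443-55713742 on the - strand (TTCCTAGAA and TTCCCAGAA, 173 and 64 bases before).
Fga: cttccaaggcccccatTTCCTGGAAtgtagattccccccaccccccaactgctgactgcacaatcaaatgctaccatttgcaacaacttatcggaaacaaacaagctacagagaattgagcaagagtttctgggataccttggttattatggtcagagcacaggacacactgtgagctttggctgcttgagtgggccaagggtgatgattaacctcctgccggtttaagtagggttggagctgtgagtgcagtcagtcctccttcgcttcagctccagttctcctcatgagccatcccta
Fgb: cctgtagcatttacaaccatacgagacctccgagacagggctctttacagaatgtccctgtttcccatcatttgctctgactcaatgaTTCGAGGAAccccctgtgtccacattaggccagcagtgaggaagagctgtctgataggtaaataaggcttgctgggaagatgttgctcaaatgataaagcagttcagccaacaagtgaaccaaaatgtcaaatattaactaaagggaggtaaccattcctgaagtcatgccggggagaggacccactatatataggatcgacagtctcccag
Socs3: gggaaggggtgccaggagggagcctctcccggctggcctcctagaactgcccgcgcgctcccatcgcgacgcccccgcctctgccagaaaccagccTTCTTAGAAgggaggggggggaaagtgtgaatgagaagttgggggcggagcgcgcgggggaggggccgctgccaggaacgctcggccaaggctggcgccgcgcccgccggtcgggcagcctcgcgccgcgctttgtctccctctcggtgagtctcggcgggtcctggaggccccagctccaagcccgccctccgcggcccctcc
Steap4: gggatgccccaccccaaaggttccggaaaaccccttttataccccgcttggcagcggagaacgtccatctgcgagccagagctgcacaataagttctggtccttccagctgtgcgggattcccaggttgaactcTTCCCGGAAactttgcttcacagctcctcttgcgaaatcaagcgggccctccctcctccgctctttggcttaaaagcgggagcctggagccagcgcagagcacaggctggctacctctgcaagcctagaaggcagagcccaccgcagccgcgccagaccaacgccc
Tgm1: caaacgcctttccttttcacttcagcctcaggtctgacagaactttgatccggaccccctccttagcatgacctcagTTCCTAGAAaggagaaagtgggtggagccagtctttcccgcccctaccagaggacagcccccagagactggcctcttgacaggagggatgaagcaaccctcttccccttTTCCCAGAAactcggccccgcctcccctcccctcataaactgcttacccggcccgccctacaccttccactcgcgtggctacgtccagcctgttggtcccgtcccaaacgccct
The share of promoters with TTCNNNGAA was 13.1% for the lower genes (32 of 245 with a promoter), 5.24% for the higher genes (11 of 210), 6.93% for tested genes that were not called and 8.47% for all promoters in the table. For TTCCNGGAA the shares were 3.27%, 0.476%, 1.30% and 1.15%. A match is a description of these letters and not a site.

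Some adaptors and receptors of innate immune signalling also fell in the knockout. Tifa (ENSMUSG00000046688), an adaptor that couples danger signals to TRAF6, was at 45.3, 32.2, 53.3 and 34.9 CPM in WT PRA and at 3.57, 4.28 and 5.27 CPM in knockout PRA. It fell 9.48-fold with no overlap (log2 fold change -3.25 ± 0.27, edgeR adjusted p = 4.4e-07). Of 23 tested members of the interleukin-1 and Toll-like receptor list, 5 fell (Myd88, Irak3, Irak4, Il1r1 and Il1rn) and 0 rose, with a median log2 fold change of -0.24, and 3 fell without WT PRA 2, WT PRA 4 or knockout PRA 1 and 2 without knockout PRA 2 or 3. Myd88 (ENSMUSG00000032508), the adaptor shared by these receptors, was at 42.1, 36.7, 42.9 and 39.2 CPM in WT PRA and at 22.4, 19.5 and 20.9 CPM in knockout PRA. Each group was tight, and Myd88 fell 1.92-fold (log2 fold change -0.94 ± 0.08, adjusted p = 3.52e-07). The other 4 had larger p-values: Irak4, a kinase recruited by MYD88, fell by 0.67 on the log2 scale (adjusted p = 0.0109), Irak3, an inhibitor of this signalling, fell by 1.17 (0.0138), and the receptor antagonist Il1rn fell by 1.38 (0.0226). The receptor Il1r1 fell from 191 ± 16.7 to 80.7 ± 13.6 CPM (adjusted p = 0.0497). Leaving out any single library left 2 to 4 members of the list lower. By these list counts, Il1r1 no longer passed without WT PRA 1, WT PRA 2, WT PRA 4, knockout PRA 2 or knockout PRA 3. After vehicle its log2 fold change was -0.94 ± 0.30 and did not pass (edgeR adjusted p = 0.581). Its genotype difference was not called different between PRA and vehicle (log2 -0.31 ± 0.44, edgeR adjusted p = 0.926). Without knockout PRA 1, Irak4 (0.0849) and Irak3 (0.109) no longer passed, nor did Irak4 without knockout PRA 2 (0.0535) or Irak3 without WT PRA 3 (0.0528) or knockout PRA 3 (0.0669). Il1rn no longer passed without WT PRA 2 (0.0548), WT PRA 4 (0.0843), knockout PRA 2 (0.109) or knockout PRA 3 (0.102). Over their alternatives the adjusted p ran from 0.000659 to 1 for Irak4, from 0.000679 to 0.423 for Irak3 and from 0.00117 to 0.356 for Il1rn.

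The neutrophil chemoattractant Cxcl1 (ENSMUSG00000029380) was at 80.4, 158, 149.6 and 111 CPM in WT PRA and at 12.5, 12.2 and 11.1 CPM in knockout PRA. It fell 10.4-fold (log2 fold change -3.38 ± 0.38, edgeR adjusted p = 5.59e-05), to a level close to the 12.2 ± 2.09 CPM of WT vehicle liver. Cxcl1 was the 1 call among 27 tested NF-κB and chemokine genes, whose median log2 fold change was -0.07. Neutrophil markers, 8 of 15 of them tested, summed to 13.06 to 15.09 CPM in WT PRA and 4.99 to 14.7 CPM in knockout PRA, with 0 calls in edgeR, 1 lower without knockout PRA 1, and a median log2 fold change of -0.73. Their part in the Cxcl1 difference was not tested.

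A few interferon-stimulated genes fell. Of 32 tested members, 5 fell (Irgm1, Irgm2, Irf9, Iigp1 and Mx2) and 0 rose, with a median log2 fold change of -0.46. Irgm1 (ENSMUSG00000046879), an immunity-related GTPase, was at 49.0, 55.0, 44.7 and 58.6 CPM in WT PRA and at 36.3, 28.5 and 32.6 CPM in knockout PRA. The groups were apart, with a 1.60-fold drop (log2 fold change -0.68 ± 0.13, edgeR adjusted p = 0.00372). The count of lower members depended on single libraries: it was 3 without WT PRA 2, 2 without WT PRA 4, 1 without knockout PRA 2 and 2 without knockout PRA 3. The groups of the GTPase gene Mx2 overlapped, at 7.22 to 15.5 CPM in WT PRA and 4.99 to 7.55 CPM in knockout PRA.

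Genes of iron and zinc handling moved in both directions. In the iron and heme list, 6 of 29 tested members fell (Lcn2, Steap4, Slc39a14, Hpx, Hp and the iron-responsive element binding protein gene Ireb2) and 3 rose (Smad9, Bmp6 and the metalloreductase gene Steap3), with a median log2 fold change of 0.07. Only 1 member rose without WT PRA 4 or without knockout PRA 3. Steap4 (ENSMUSG00000012428), a metalloreductase for iron and copper, was at 773, 552, 869.7 and 550.2 CPM in WT PRA and at 78.9, 84.7 and 85.8 CPM in knockout PRA. It fell 8.25-fold (log2 fold change -3.04 ± 0.30, edgeR adjusted p = 7.19e-06), and the knockout values were near those after vehicle, 90.9 ± 36.9 CPM in WT and 68.1 ± 13.4 CPM in knockout. Hepcidin (Hamp, ENSMUSG00000050440), the hormone that blocks iron export and a known IL-6 target, was at 1544, 1949, 2111 and 1726 CPM in WT PRA and at 862, 1947 and 897 CPM in knockout PRA. Knockout PRA 2 lay within the WT range and the other 2 knockout libraries below it. Hamp did not pass with all libraries (log2 fold change -0.57 ± 0.26, edgeR adjusted p = 0.294) and passed without knockout PRA 2 (-1.06, adjusted p = 0.0153), with adjusted p from 0.0153 to 1 over its alternatives. Smad9 (ENSMUSG00000027796), which transmits bone morphogenetic protein signals, was at 1.29, 1.94, 1.55 and 2.46 CPM in WT PRA and at 3.98, 5.76 and 6.86 CPM in knockout PRA. It rose 3.00-fold (log2 fold change 1.59 ± 0.27, adjusted p = 0.00147), and its ligand Bmp6 rose from 3.18 ± 0.446 to 5.29 ± 0.676 CPM (adjusted p = 0.0168). Both were lower than after vehicle in WT, where Smad9 averaged 11.8 ± 3.22 CPM and Bmp6 6.54 ± 1.51 CPM.

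In the metallothionein and zinc transporter list, 5 of 14 tested members fell (Slc39a14, Slc39a4, Slc39a1, Slc30a5 and Mt1) and 2 rose (Slc39a5 and Slc30a1), with a median log2 fold change of -0.08, and 1 rose without knockout PRA 3. ZIP14 (Slc39a14, ENSMUSG00000022094), which takes up zinc and iron in the inflamed liver, was at 341, 356, 403 and 351 CPM in WT PRA and at 124, 184 and 222 CPM in knockout PRA. The groups did not overlap and the drop was 2.06-fold (log2 fold change -1.04 ± 0.16, edgeR adjusted p = 0.000486). ZIP4 (Slc39a4, ENSMUSG00000063354), the zinc importer best known from the intestine, was at 81.5, 95.0, 69.3 and 84.9 CPM in WT PRA and at 36.7, 32.1 and 36.6 CPM in knockout PRA. Its 2.35-fold drop under PRA (log2 fold change -1.23 ± 0.21, adjusted p = 0.00209) stood beside a drop of similar size after vehicle (-1.18, adjusted p = 0.0155). ZnT5 (Slc30a5), a zinc carrier of the secretory pathway, fell 1.90-fold from 45.4 ± 3.63 to 23.9 ± 2.06 CPM (adjusted p = 7.32e-06). Metallothionein 1 (Mt1, ENSMUSG00000031765), a zinc-binding protein, was at 3091, 2584, 4093 and 2394 CPM in WT PRA and at 1299, 1019 and 865 CPM in knockout PRA. It fell 2.87-fold, just past the threshold (log2 fold change -1.52 ± 0.40, edgeR adjusted p = 0.0483), and the call was lost when any of the 7 libraries was left out, with adjusted p from 0.0653 to 0.166. Over all 16 alternatives it ran from 0.00135 to 0.468, and Mt1 did not pass with the replicate block (0.0748). Mt2, its neighbour, did not pass in the fit to all libraries (log2 fold change -1.47 ± 0.43, adjusted p = 0.075). It passed in DESeq2 (0.00776), limma-voom (0.0204) and a fit to the 2 PRA groups alone (6.92e-05), with adjusted p from 6.92e-05 to 0.684 over 16 alternatives.

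In the coagulation list, 6 of 35 tested genes fell and 0 rose, with a median log2 fold change of -0.03. They were the 3 fibrinogen chains, Serpina10, the carboxypeptidase Cpb2 and the kininogen Kng2. In the complement list, 2 of 30 fell, with a median of -0.15, and 1 fell without WT PRA 1, WT PRA 2 or knockout PRA 2. C4b, the fourth component, fell 1.54-fold from 1531 ± 109 to 997 ± 113 CPM (edgeR adjusted p = 0.00138), and C4 copies may share reads.

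Several of the largest drops were in genes outside these lists. B3galt1 (ENSMUSG00000034780), a galactosyltransferase of glycan chains, was at 137, 181, 170.3 and 148 CPM in WT PRA and at 21.9, 11 and 17.1 CPM in knockout PRA. It fell 9.51-fold without overlap (log2 fold change -3.25 ± 0.35, edgeR adjusted p = 3.55e-05). Syt12 (ENSMUSG00000049303), a synaptotagmin of membrane traffic, was at 8.52, 7.62, 11.7 and 9.95 CPM in WT PRA and at 1.44, 0.892 and 0.510 CPM in knockout PRA. That was a 9.84-fold drop (log2 fold change -3.30 ± 0.39, adjusted p = 2.91e-05). Tgm1 (ENSMUSG00000022218), a transglutaminase that cross-links proteins, was at 12.3, 16, 23.0 and 14.4 CPM in WT PRA and at 2.96, 2.27 and 3.25 CPM in knockout PRA. Its 5.79-fold drop (log2 fold change -2.53 ± 0.38, adjusted p = 0.000987) took it below the vehicle means of 15.2 ± 6.58 CPM in WT and 9.90 ± 3.90 CPM in knockout. Slc41a2 (ENSMUSG00000034591), a magnesium transporter, fell 5.53-fold from 59.9 ± 6.60 to 10.8 ± 2.42 CPM (adjusted p = 0.00307). Prg4 (ENSMUSG00000006014), lubricin, fell 3.58-fold from 193 ± 43.1 to 54.0 ± 3.04 CPM (adjusted p = 1.56e-07), and Zc3h13, a component of the RNA m6A methylation machinery, fell 3.58-fold from 44.7 ± 11.6 to 12.5 ± 0.910 CPM (adjusted p = 8.28e-08).

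Xbp1 (ENSMUSG00000020484), a transcription factor of the unfolded protein response and of secretory capacity, was at 229, 228, 297 and 278 CPM in WT PRA and at 74.3, 98.5 and 84.6 CPM in knockout PRA. It fell 3.01-fold (log2 fold change -1.59 ± 0.20, edgeR adjusted p = 5.66e-05), to below the vehicle means of 166 ± 13.6 CPM in WT and 150.3 ± 36.5 CPM in knockout. Xbp1 was the 1 lower gene among 36 tested genes of the endoplasmic reticulum and integrated stress lists. There the stress sensor gene Sesn2 rose (log2 fold change 0.64 ± 0.14, edgeR adjusted p = 0.0114). Sesn2 no longer passed without knockout PRA 1 (0.068), where 0 of the list were higher, or without knockout PRA 3 (0.051). Nudt7 (ENSMUSG00000031767), a peroxisomal coenzyme A hydrolase, was at 389.8, 446, 363 and 422 CPM in WT PRA and at 96.9, 179 and 135 CPM in knockout PRA. It fell 2.95-fold (log2 fold change -1.56 ± 0.25, adjusted p = 0.00108). Nnmt (ENSMUSG00000032271), which methylates nicotinamide, fell 2.53-fold from 493 ± 36.7 to 195 ± 26.9 CPM (adjusted p = 0.00538). Abca1, the cholesterol exporter that lipidates apolipoprotein A-I, fell 1.79-fold from 97.6 ± 9.26 to 54.7 ± 7.35 CPM (adjusted p = 6.96e-05).

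The genes that were higher in the knockout showed smaller differences and no single dominant list. Cyp4a10 (ENSMUSG00000066072), a PPARα target in the mouse, was at 26.2, 32.2, 45.1 and 42.2 CPM in WT PRA and at 165, 214 and 315 CPM in knockout PRA. It rose 6.35-fold with no overlap (log2 fold change 2.67 ± 0.49, edgeR adjusted p = 0.00556). The vehicle means were 204 ± 145 CPM in WT and 157 ± 24.1 CPM in knockout, so the knockout PRA level lay near the vehicle level and the WT PRA level below it. Cyp4a14 (ENSMUSG00000028715), a close relative that may share reads, was at 6.83, 10.3, 11.7 and 11.3 CPM in WT PRA and at 73.8, 63.3 and 91.6 CPM in knockout PRA. The groups did not overlap, but the difference missed the threshold in the fit to all libraries (log2 fold change 2.92 ± 0.81, adjusted p = 0.0616). WT vehicle varied widely for this gene, at 124 ± 125 CPM. Cyp4a14 passed with a 1 CPM filter (0.0462), in DESeq2 (0.00383) and in a fit to the 2 PRA groups alone (6.63e-06), and its adjusted p ran from 6.63e-06 to 0.379 over 16 alternatives.

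Other genes of fatty acid oxidation split. Of 39 tested members of the PPARα and fatty acid oxidation list, 2 rose (Cyp4a10 and Acadm) and 2 fell (Cd36 among them), with a median log2 fold change of 0.07. Acadm (ENSMUSG00000062908), the medium-chain acyl-CoA dehydrogenase of mitochondria, was at 277, 297, 286 and 272 CPM in WT PRA and at 395, 342 and 377 CPM in knockout PRA. It rose 1.31-fold (log2 fold change 0.39 ± 0.10, edgeR adjusted p = 0.027). The fatty acid receptor Cd36 fell 1.52-fold (adjusted p = 0.0483), and its groups overlapped, at 14.9 to 19.5 CPM in WT PRA and 8.83 to 15.8 CPM in knockout PRA. The Acadm and Cd36 calls were sensitive to single libraries. Acadm was lost without WT PRA 1, 3 or 4 or knockout PRA 1 or 3 (0.0637 to 0.169). Cd36 was lost without WT PRA 1, 3 or 4 or knockout PRA 1 or 2 (0.0788 to 0.246). With the replicate block, Cd36 (0.055) no longer passed. Over 16 alternatives the adjusted p ran from 0.00476 to 1 for Acadm and from 0.00238 to 1 for Cd36.

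The lipogenesis and lipid droplet list had 2 higher genes of 27 tested (Gpam and Plin5) and 1 lower (Pparg), with a median log2 fold change of -0.06. Pparg had a log2 fold change of -0.85 (edgeR adjusted p = 0.0316). Its call was lost without WT PRA 2, WT PRA 4 or any knockout PRA library (0.0818 to 0.128). Plin5 (ENSMUSG00000011305), which coats lipid droplets at mitochondria, was at 123, 105, 106 and 89.4 CPM in WT PRA and at 162, 239 and 147 CPM in knockout PRA. It rose 1.73-fold (log2 fold change 0.79 ± 0.18, edgeR adjusted p = 0.0184). Without knockout PRA 2, the highest library, the log2 fold change was 0.54 and did not pass (0.13), and it also missed the threshold without WT PRA 3 (0.0505) or WT PRA 4 (0.0653), with adjusted p from 0.00209 to 1 over 16 alternatives. Gpam, the acyltransferase that starts glycerolipid synthesis, rose 1.45-fold from 75.8 ± 8.28 to 110.2 ± 9.76 CPM (adjusted p = 0.00612). Retsat (ENSMUSG00000056666), retinol saturase, was at 223, 268, 241 and 236 CPM in WT PRA and at 387, 458 and 401 CPM in knockout PRA. It rose 1.72-fold (log2 fold change 0.78 ± 0.16, adjusted p = 0.00494). None of the 25 tested cholesterol synthesis genes passed in edgeR, 1 was higher in a fit to the PRA groups alone, and their median log2 fold change was 0.11.

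Irs1 (ENSMUSG00000055980), an insulin receptor substrate, was at 7.76, 7.69, 4.39 and 5.03 CPM in WT PRA and at 15.5, 12.4 and 12.7 CPM in knockout PRA. It rose 2.19-fold (edgeR adjusted p = 0.00599), and without knockout PRA 1 the adjusted p was 0.0501, within a range of 7.14e-05 to 0.332 over its alternatives. Irs1 and Foxo3 (log2 fold change 0.48 ± 0.13, adjusted p = 0.0342) were the 2 higher genes of 24 tested in the gluconeogenesis and insulin list, where 0 fell in edgeR and the median was 0.06. Foxo3 was lost without WT PRA 1 (0.102), WT PRA 3 (0.122) or knockout PRA 1 (0.0832), 2 (0.116) or 3 (0.0913), with adjusted p from 0.00963 to 1 over 16 alternatives, and 0 members were higher without knockout PRA 1. In DESeq2 and in limma-voom 2 members of the list were lower, and 1 was lower without knockout PRA 3. Of 21 tested clock genes, 3 rose (Nr1d1, Rora and Npas2) and 0 fell, while the median was -0.11. Over all tested genes 1.64% were higher and 2.15% lower. Nr1d1 (ENSMUSG00000020889), the repressor REV-ERBα, was at 78.5, 72.5, 86.3 and 109 CPM in WT PRA and at 125, 173 and 155 CPM in knockout PRA. It rose 1.74-fold (log2 fold change 0.80 ± 0.15, adjusted p = 0.00355), to a level near the vehicle means of 146 ± 23.8 CPM in WT and 151 ± 15.9 CPM in knockout. Rora, an activator that binds the same elements, rose 1.54-fold (adjusted p = 0.00193). Npas2 (ENSMUSG00000026077), a paralog of CLOCK, was scarce, at 1.33, 0.203, 0.348 and 0.604 CPM in WT PRA and at 5.46, 6.65 and 3.55 CPM in knockout PRA. It rose 8.79-fold (log2 fold change 3.14 ± 0.79, adjusted p = 0.0354), or by 3.75 on the log2 scale without WT PRA 1. Its call was lost when any library other than WT PRA 1 was left out (0.0516 to 0.107), with adjusted p from 0.00276 to 0.2 over all 16 alternatives.

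Other named higher genes were low in abundance. Tiam2 (ENSMUSG00000023800), an exchange factor for the GTPase Rac, was at 3.67, 4.10, 2.06 and 2.73 CPM in WT PRA and at 10.5, 10.01 and 10.4 CPM in knockout PRA. It rose 3.28-fold (log2 fold change 1.71 ± 0.23, edgeR adjusted p = 0.000152). Dapk2, a calmodulin-regulated kinase, rose 2.50-fold from 2.82 ± 0.328 to 7.12 ± 1.12 CPM (adjusted p = 8.6e-05), and Txnl4b, a thioredoxin-like splicing factor, rose 2.31-fold from 3.25 ± 0.933 to 7.58 ± 0.911 CPM (adjusted p = 0.000233). Cited2, a regulator of the coactivators CBP and p300, rose 2.15-fold from 19.3 ± 4.94 to 41.6 ± 5.40 CPM (adjusted p = 0.00054). Srgap3, a GTPase-activating protein, rose 3.24-fold (adjusted p = 0.018), Rtn4rl1, of the Nogo receptor family, 2.49-fold (0.00678) and Mcc, a Wnt pathway regulator, 2.25-fold (0.0109). Srgap3 no longer passed without WT PRA 4 (0.0668) or knockout PRA 2 (0.0898), Rtn4rl1 without knockout PRA 1 (0.0566) or Mcc without knockout PRA 3 (0.0705). Their adjusted p ran from 0.000218 to 0.198, from 2.78e-05 to 0.186 and from 0.000106 to 0.374 over the alternatives.

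**Figure D3:**
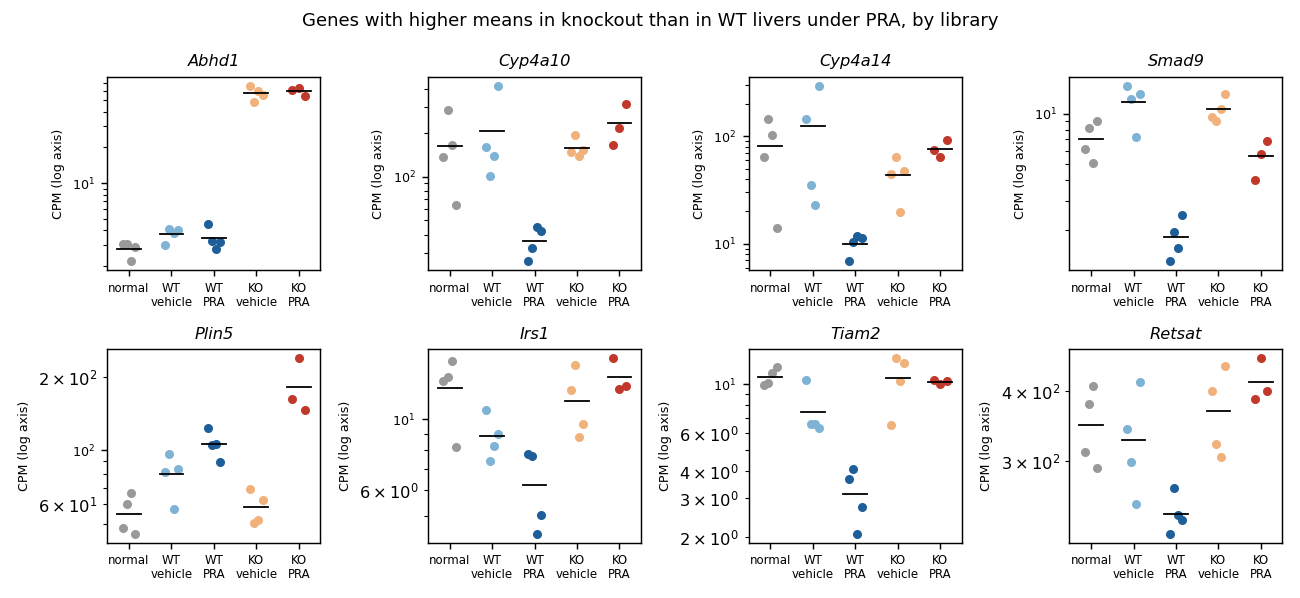
TMM-scaled CPM (log axis) of 8 genes higher in knockout liver under PRA, by group, with a point for each library and a bar at the group mean. Abhd1 is high in both knockout groups, whereas for Cyp4a10, Smad9 and Retsat the knockout PRA points lie above the WT PRA points and the vehicle groups overlap. Cyp4a14 missed the threshold with an adjusted p of 0.0616.

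Many liver functions had few or no calls in edgeR, a test that missed most 1.5-fold changes in simulated counts. None of the 15 tested urea cycle genes, 47 ribosomal protein genes or 37 respiratory chain genes passed, in the fit to all libraries or in any alternative. None of 26 hypoxia genes, 23 pericentral genes or 19 growth hormone response genes passed in the fit to all libraries, and the median log2 fold changes of these 6 lists lay between -0.07 and 0.003. An edgeR fit to the PRA groups alone called 4 pericentral genes higher and 1 lower, 1 hypoxia gene in each direction and 2 growth hormone response genes lower. DESeq2 and limma-voom each called 2 pericentral genes higher and 1 lower and 1 hypoxia gene in each direction. In edgeR 1 pericentral gene was higher without WT PRA 1, without a filter and with a 1 CPM filter.

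The transporter list had 1 lower gene of 34, Slc13a5, and the glucocorticoid-responsive list 1 lower gene of 26, Lcn2, which the acute phase list also holds. These counts depended on the method: DESeq2 and limma-voom each called 5 transporters lower and the fit to the PRA groups alone 6, and without knockout PRA 3 edgeR called 2. Among glucocorticoid-responsive genes DESeq2 and limma-voom called 4 lower, the fit to the PRA groups alone 5 and the replicate block 2. The amino acid list had 1 lower gene of 45 (Kmo), and 0 without knockout PRA 1. Cytochromes P450 had 1 higher and 1 lower gene of 38 (Cyp2u1 and Cyp3a13), with 0 higher without knockout PRA 1 or 3, while limma-voom called 4 higher and 2 lower. Bile acid genes had 1 of each of 23 (Fgfr4 and Baat), with Fgfr4 lost without knockout PRA 1 and Baat without WT PRA 2 or knockout PRA 1. The corresponding share of calls over all genes was 3.8%.

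Markers of other liver cells gave few calls. Kupffer cell markers summed to 747.5 to 941.7 CPM in WT PRA and 771.3 to 842.2 CPM in knockout PRA, with 0 of 13 called in edgeR and a median log2 fold change of -0.21. DESeq2 called 1 Kupffer marker higher, a fit to the PRA groups alone 1 lower, and edgeR without WT PRA 2 1 higher. Monocyte markers summed to 65.18 to 102.3 CPM in WT PRA and 74.81 to 83.9 CPM in knockout PRA, with 0 of 12 called in edgeR and a median of -0.47. Of these, 1 was lower with RLE scaling, without a filter, with a 1 CPM filter, with the replicate block, in DESeq2, in a fit to the PRA groups alone and without WT PRA 3 or knockout PRA 1, and 2 were lower in limma-voom. The stellate, bile duct and T or NK cell lists had 0 calls in edgeR and in every alternative, out of 16, 8 and 12 tested markers. Of 18 endothelial markers 0 were called, and 1 was higher without knockout PRA 1.

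Among 6 red cell markers, 2 globins fell and the median log2 fold change was -1.33. Hbb-bt went from 2.79 ± 0.789 to 0.985 ± 0.143 CPM (edgeR adjusted p = 0.0272) and Hba-a2 from 3.99 ± 1.21 to 1.58 ± 0.267 CPM (0.0431), and globin copies may share reads. The count was 0 when any 1 of WT PRA 2, 3 and 4 and knockout PRA 1, 2 and 3 was left out, and 4 without WT PRA 1, in DESeq2 and in limma-voom. With the replicate block Hba-a2 did not pass (0.0733). Over 16 alternatives the adjusted p ran from 0.00178 to 0.333 for Hbb-bt and from 0.00473 to 0.541 for Hba-a2. The summed red cell markers overlapped, at 177.5 to 221.8 CPM in WT PRA and 165.7 to 206.4 CPM in knockout PRA. Most of this sum came from members other than Hbb-bt and Hba-a2, so it does not follow these globins. Of 13 B cell markers, 1 fell, the kappa constant region Igkc, from 1.29 ± 0.228 to 0.580 ± 0.301 CPM (adjusted p = 0.0159). Igkc was lost without WT PRA 2 (0.0589), knockout PRA 1 (0.104) or knockout PRA 3 (0.0948) and in a fit to the PRA groups alone (0.0526), with adjusted p from 0.00105 to 0.446 over its alternatives. The kidney markers Slc12a1, Aqp2 and Nphs1 and the pancreas markers Cela3b, Prss2, Cpa1, Pnlip and Amy2a5 were at 0 counts in all 7 libraries. Other members of both lists were detected. The 7 kidney markers summed to 0.313 to 4.98 CPM in WT PRA and 0.484 to 0.838 CPM in knockout PRA. The 3 tested had a median log2 fold change of -3.9. The 8 pancreas markers summed to 17.76 to 34.9 CPM and 20.62 to 25.45 CPM, with a median of 0.55 over 2 tested. None of these tested markers passed in edgeR.

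**Figure D4:**
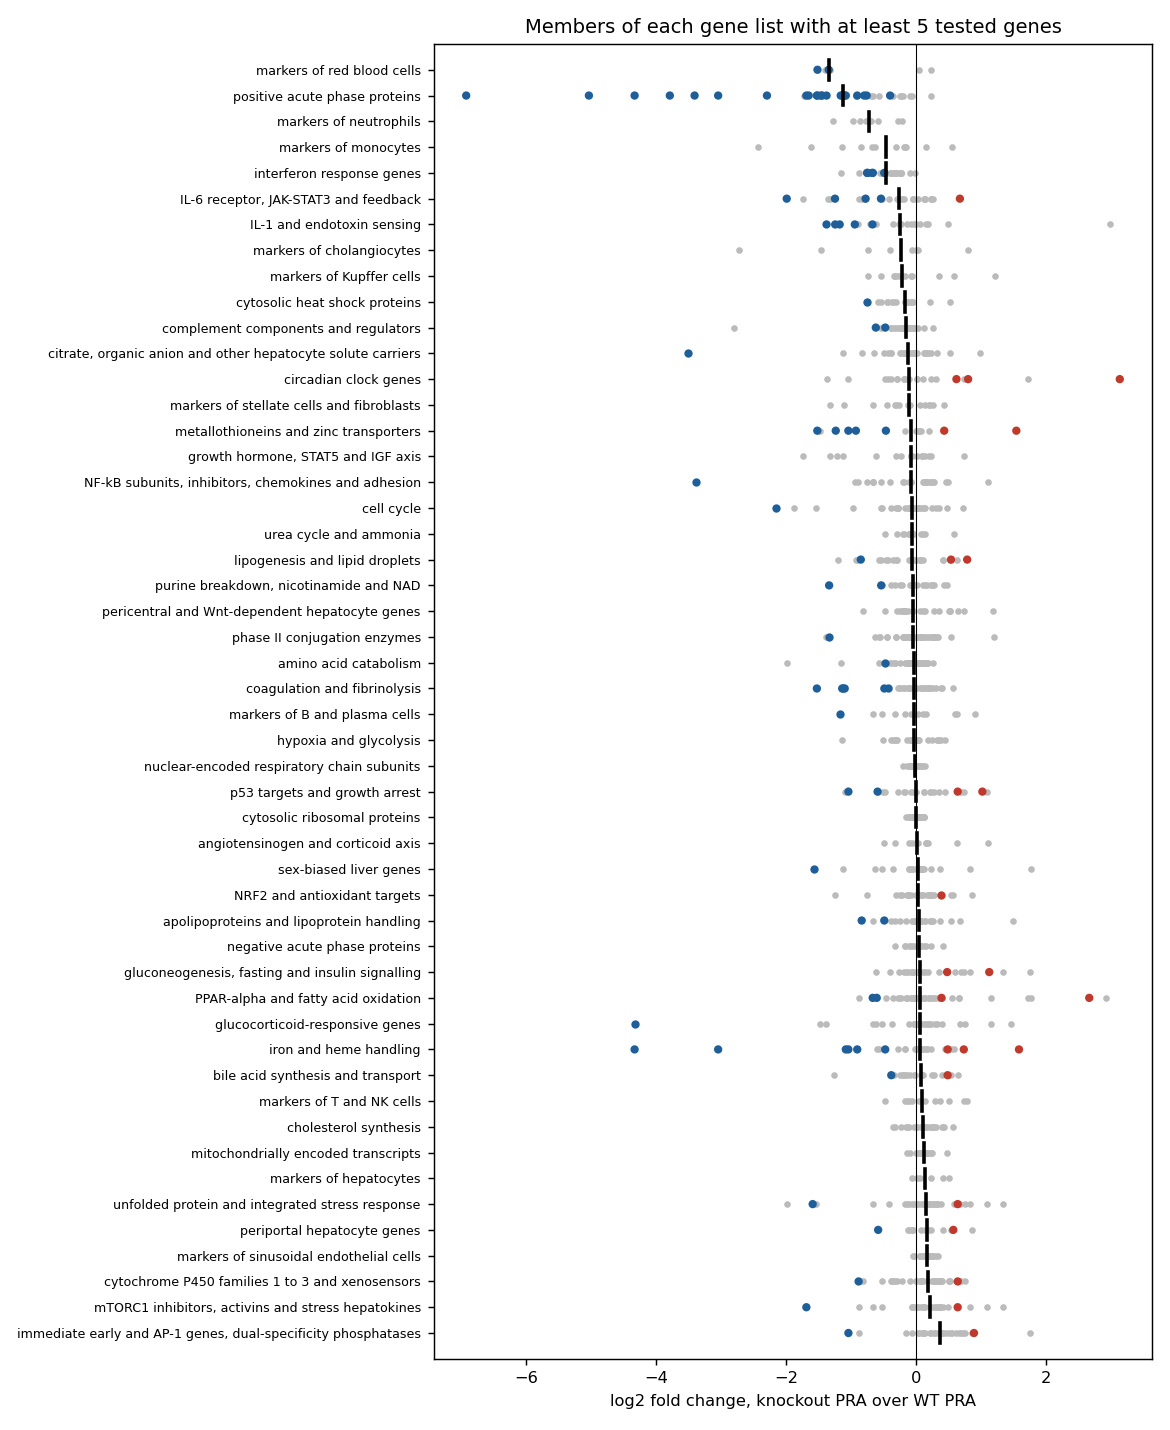
Log2 fold change of knockout PRA over WT PRA (x axis) for the tested members of 50 gene lists with at least 5 tested genes (y axis), with a point for each gene and a black bar at the list's median. Blue points were called lower and red points higher at an adjusted p of 0.05, and the positive acute phase list has its median at -1.13, while most other medians lie near 0.

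The genotypes were also compared after vehicle, where no libraries are shared with the PRA comparison. There 11 of 15570 genes (0.0706%) passed in edgeR, 8 higher (0.0514%) and 3 lower (0.0193%) in the knockout, and 933 had an unadjusted p under 0.05. Single libraries moved these small counts: the higher calls numbered 5, 4, 5 and 1 without WT vehicle 1, 2, 3 and 4 and 4 without knockout vehicle 3, and the lower calls 7 without WT vehicle 1 or knockout vehicle 2, 5 without WT vehicle 3 and 1 without WT vehicle 4 or knockout vehicle 3. Of these 11 genes, 6 were also called under PRA, all in the same direction, which is 54.5% of the vehicle calls and 1.02% of the PRA calls. They were Abhd1, Slc39a4, the lncRNA AI506816, the vesicle transport gene Rint1, the O-glycosyltransferase gene Galnt11 and the predicted gene Gm2420. The positive acute phase list had 0 calls after vehicle and a median log2 fold change of -0.04. The genes lower under PRA had a median of -0.15 after vehicle, and 77.3% of them kept their sign there, and the higher genes had a median of 0.14 and 78.9%. Over all tested genes, 56.7% had the same sign in both comparisons.

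Whether the genotype difference itself differed between PRA and vehicle was tested by an interaction term. It passed for 74 genes (0.475%), of which 68 were lower (0.437%) and 6 higher (0.0385%), where lower means a more negative knockout difference under PRA. The lower calls numbered 39, 42, 42 and 36 without WT vehicle 2, WT PRA 3, knockout vehicle 3 and knockout PRA 2, and the higher calls ranged from 0 to 15 over single libraries, with 0 without WT PRA 3 and 15 without knockout vehicle 2. Of the 36 positive acute phase members, 14 had a lower interaction. The log2 interaction was -6.19 for Saa2 (edgeR adjusted p = 0.00115), -4.67 for Saa1 (0.000425), -4.06 for Lcn2 (0.000434) and -4.03 for Orm2 (1.32e-05). It was -3.52 for Tifa (2.04e-05), -2.71 for Slc13a5 (0.0118), -2.63 for Steap4 (0.00161), -1.93 for Serpina3n (3.39e-06) and -1.05 to -1.10 for the fibrinogen chains (0.0247). Among metallothionein and zinc genes it passed for Slc30a5 (-0.70, 0.0194) and did not pass for Mt1 (0.00, adjusted p = 1), Mt2 (0.28, 0.954), Slc39a14 (-0.37, 0.68) or Slc39a4 (-0.05, 0.987). Mt1 averaged 226 ± 109 CPM in WT and 78.9 ± 33.9 CPM in knockout after vehicle. Cxcl1 (-1.80, 0.15), Socs3 (-1.64, 0.366), Stat3 (-0.14, 0.96) and Cyp4a10 (3.04, 0.0606) did not pass the interaction either. Among higher genes it passed for Smad9 (1.74, 0.0247), Plin5 (1.24, 0.0258) and Txnl4b (1.08, 0.0333).

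**Figure D5:**
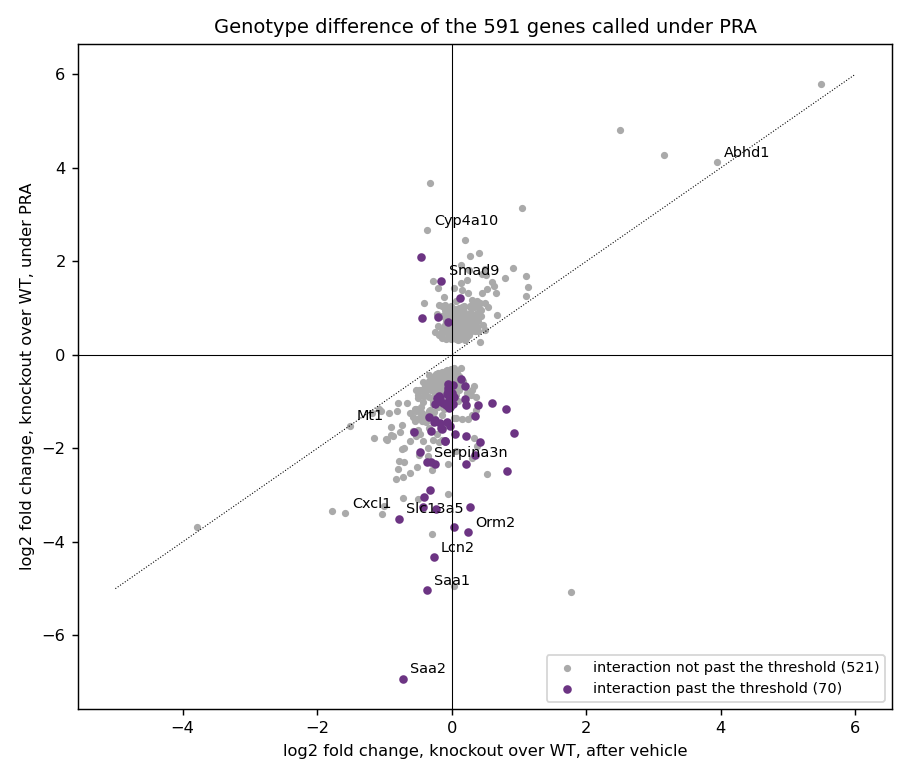
Each point is 1 of the 591 genes called under PRA, with the log2 fold change of knockout over WT after vehicle on the x axis and under PRA on the y axis. The 70 purple genes also passed the interaction and the 521 others did not. Saa2, Saa1, Lcn2 and Orm2 lie far below the line of equal change, and Abhd1 lies close to it.

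Genes near the Il6 locus were counted apart from the rest. Among the 25 tested genes nearest to Il6 on each side by RefSeq gene order, 6 of 50 (12%) were called under PRA, 4 higher and 2 lower. The share was 4.46% of 897 other tested genes of that chromosome and 3.81% of 13653 genes of other chromosomes. After vehicle the shares were 4%, 0.446% and 0.0366%. The 6 genes were Abhd1, Galnt11, Rbm33, Atraid, Cad and Snx17. The neighbourhood holds Abhd1, the higher gene with the largest fold among the named genes, but none of the acute phase genes named here.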

How the data were processed

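Liver poly(A) RNA libraries were grouped by genotype and treatment from the sample titles. The authors deposited raw gene counts in a series table and in files per library, which were identical (0 counts differed). Per the submitters' processing notes, the genome build was GRCm39 and the tools included HTSeq 0.11.3, HISAT2 2.2.1 and SAMtools 1.13. Annotation release and strand setting: not given in the sources used here, so reads of overlapping or antisense genes cannot be told apart, and near-identical copies (Saa1 and Saa2, Orm, Serpina3, Cyp4a, C4 and Mup genes, globins) are uncertain. Symbols matched 52083 of 55416 gene lines, which held 99.58% of counts.

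The tests used edgeR 4.0.16 under R 4.3.3 (filterByExpr, TMM, robust quasi-likelihood fit of a mean per group over all 19 libraries, Benjamini-Hochberg over 15570 genes, threshold 0.05). Sharing 1 estimate of spread over 5 groups lets variation in other groups affect the PRA test. Contrasts were knockout against WT under PRA, the same after vehicle, and their difference. CPM are TMM-scaled and given with the SD, log2 fold changes with the SE. A count of 0 allows up to 3 counts, 0.0467 to 0.0935 CPM of unscaled library totals, for counting error only. Replicate counts within a group differed by a chi-square of at least 20.93 per degree of freedom, so no library looked deposited more than once in its group. Libraries of different groups were not compared in this way. In simulated counts of this design, the PRA contrast recovered 40.3% of 67 genes changed 1.5-fold and 88.1% of 67 changed 2-fold. It recovered 98.5% of 66 changed 4-fold. Changed genes averaged at least 1 CPM, and 2 unchanged genes were called. Alternatives used DESeq2 1.42.0, limma 3.58.1, other scalings, filters, a 1.5-fold threshold (glmTreat), a replicate block, the contrast's groups alone, and each library left out.

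Some named genes came from those that were called, averaged at least 5 CPM in a group, and did not overlap. These were the 12 largest folds and 6 largest CPM differences per direction and the 6 smallest interaction p-values. Also named were up to 4 called members per list, whatever their CPM or overlap, and a fixed set of IL-6 related genes, whatever their p. Genes named beyond this rule (Hpx, Itih3, Serpina3m, Crp, Apcs, Lbp, C3, A2m, Il6st, Jak2, Il1r1, Irgm2, Alb, Bmp6, Dmbt1, Krt19, Acta2, Rint1, AI506816 and the list members without values) were chosen after their values were seen. Genes, members and lists were chosen with earlier results of these data known. A planned 10 Mb window around Il6 was replaced by gene order, because the annotation used here is GRCm38. Promoters are from RefSeq, GRCm38.p6. Some genes that the rule names are not reported here.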

Additional observations from a re-analysis of the deposited data

Results flagged for a closer look

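In 9 of 189 groups of 4 libraries, 1 library stood apart from the other 3, 4.76%, where chance alone gives about 1 in 20. WT PRA 1 was low for Btg2 (44.3 CPM against 69.2 to 73.0 CPM), Dapk2 (2.34 against 2.93 to 3.05 CPM) and Hba-a2 (2.19 against 4.36 to 4.76 CPM). WT PRA 3 was high for Zc3h13 (61.9 against 36.6 to 40.8 CPM). Outside the PRA groups, knockout vehicle 1 was high for Saa2 (44.7 against 9.56 to 15 CPM) and WT vehicle 1 for Slc41a2 (21.7 against 6.24 to 8.81 CPM). Among normal livers, single libraries were high for Orm3 (0.79 against 0.23 to 0.299 CPM), Socs3 (23.4 against 6.1 to 8.35 CPM) and Stat3 (59.4 against 49.1 to 50.3 CPM).

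The genotype difference differed between PRA and vehicle for 29 named genes by the edgeR interaction term, 26 lower and 3 higher. Named genes were chosen partly by interaction p-values and by PRA differences, which enter the interaction, so the choice itself raised this count. Over all 15570 tested genes the interaction passed for 74 (0.475%). Among plasma proteins, the log2 interaction was -6.19 for Saa2, -4.67 for Saa1, -4.06 for Lcn2, -4.03 for Orm2 and -1.29 for Orm1. It was -2.09 for Serpina3e-ps, -1.93 for Serpina3n, -1.49 for Serpina10, -1.18 for Itih4, -1.09 for Lrg1, -1.73 for Prg4, and -1.05, -1.10 and -1.09 for Fga, Fgb and Fgg. Among signalling and regulatory genes it was -3.52 for Tifa, -0.75 for Myd88, -0.72 for Ptpn2, -0.88 for Irgm1, -1.45 for Xbp1 and -1.74 for Zc3h13. For transporters and enzymes it was -2.71 for Slc13a5, -2.63 for Steap4, -0.70 for Slc30a5, -0.77 for Abca1, -2.83 for B3galt1 and -3.07 for Syt12. The 3 higher genes were Smad9 (1.74), Plin5 (1.24) and Txnl4b (1.08).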

How the results depend on the processing

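Of 99 named genes tested, 93 passed, 57 of these under every alternative other than glmTreat, 31 under all 16 alternatives, and 0 changed sign. Under PRA, 256 higher and 335 lower genes became 9 and 72 beyond 1.5-fold (glmTreat), 428 and 491 in DESeq2, 393 and 478 in limma-voom and 352 and 512 in a fit to the PRA groups alone. Leaving out 1 library gave 93 to 201 higher and 221 to 300 lower genes. The share of higher genes was 43.3%, 11.1% in glmTreat and 29.6% without knockout PRA 1. After vehicle, 8 higher and 3 lower genes became 3 and 1 in glmTreat, 27 and 29 in DESeq2, 11 lower in limma-voom and 4 higher with only those groups, and 1 to 11 and 1 to 7 without single libraries. The interaction's 6 higher and 68 lower genes became 0 and 17 in glmTreat, 30 and 142 in DESeq2, 10 higher in limma-voom and 3 higher without a filter, and 0 to 15 and 36 to 86 without single libraries. Why the counts moved was not tested.

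Replicate numbers did not pair the PRA libraries: same-numbered deviations correlated at 0.00193, 0.0443 and 0.0199, and the best partner had the same number for pair 2 only. With a replicate block, 199 genes were higher and 297 lower under PRA (460 of the 591 calls shared), 7 and 4 after vehicle and 6 and 68 in the interaction. Transcripts near 3 counts, Il6 among them, cannot be compared at this depth.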

Other observations

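The genes given here were chosen after their values were seen, and no list of their kind was counted. Among receptor genes of other cytokines, 3 that fell in the knockout liver under PRA are described, while Osmr, the oncostatin M receptor, did not pass (log2 fold change -0.27 ± 0.18, edgeR adjusted p = 0.518). Il17ra, the interleukin-17 receptor chain, was at 68.2, 46.7, 74.4 and 55.6 CPM in WT PRA and at 21.3, 20.9 and 25.5 CPM in knockout PRA (log2 fold change -1.44 ± 0.15, edgeR adjusted p = 4.1e-06). Tnfrsf1a, the main receptor for tumour necrosis factor, was at 222, 205, 244 and 204 CPM in WT PRA and at 99.7, 119 and 102 CPM in knockout PRA (-1.03 ± 0.11, adjusted p = 5.95e-06). Il13ra1, a receptor chain for interleukin-13 and interleukin-4, averaged 43.3 ± 4.15 and 20.9 ± 1.04 CPM (-1.05 ± 0.12, adjusted p = 7.19e-06). In each of the 3 the groups did not overlap, and the interaction passed, at -1.37 for Il17ra (0.00101), -0.91 for Tnfrsf1a (0.00328) and -0.79 for Il13ra1 (0.0194). Arid5a, which stabilises cytokine mRNAs including that of Il6, averaged 19.2 ± 5.96 CPM in WT PRA and 3.93 ± 0.503 CPM in knockout PRA (log2 fold change -2.29 ± 0.28, adjusted p = 4.72e-05).

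The magnesium transporter Slc41a1 and the claudins Cldn14 and Cldn2, of tight junctions, fell in the knockout under PRA and were chosen in the same way. Slc41a1 was at 23.7, 18.8, 27.4 and 19.4 CPM in WT PRA and at 4.55, 5.17 and 6.14 CPM in knockout PRA (log2 fold change -2.08 ± 0.16, edgeR adjusted p = 8.28e-08). Cldn14, a claudin known from the kidney for restricting cation passage, averaged 94.6 ± 15.1 and 29.1 ± 8.44 CPM (-1.70 ± 0.22, adjusted p = 0.00014), against 11.2 ± 0.464 CPM in WT vehicle. Cldn2, a cation-permeable claudin, averaged 33.1 ± 3.93 and 17.3 ± 1.69 CPM (-0.94 ± 0.17, adjusted p = 0.00213), below its 46.3 ± 9.47 CPM in WT vehicle. S100a8, a calprotectin subunit of neutrophils, was higher in the knockout after vehicle (log2 fold change 2.16, adjusted p = 0.00913), at 1.11 ± 0.232 against 0.242 ± 0.0576 CPM, and did not pass under PRA (-0.58 ± 0.30, adjusted p = 0.356).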
